A study of Oryza sativa with 9 samples.

Results

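The loci described here are 115 nuclear loci of rice (Oryza sativa) from the identifier ranges of the large plastid-derived DNA insertions of chromosomes 4 and 10, of 55986 loci in the deposited expression table. They were chosen by identifier alone, LOC_Os04g16680 to LOC_Os04g16880 for 55 loci and LOC_Os10g21180 to LOC_Os10g21424 for 60 loci, so no measured value entered the choice. RNA-seq of developing seeds compared mutants of RBP-P with the wild type; this protein attaches to storage protein mRNAs in rice seeds. The groups were P1MH (RBP-P with the change G401S), P3MH (RBP-P with the change A252T) and wild type (WT), each with 3 biological repeats, and every plant grew at 27 °C under a day of 12 h light and 12 h dark. Seeds were dehulled and taken 10 to 14 days after flowering, so each library is a mixture of seed tissues. In such a mixture fewer cells of a type and less RNA per cell cannot be told apart.

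Plastids keep a small genome of their own, and copies of it have moved into plant nuclear chromosomes, where most are thought to decay. The plastid genome encodes part of the plastid's own ribosome and RNA polymerase and part of the photosynthetic machinery; the remainder of those complexes is encoded in the nucleus and imported. A young nuclear copy differs little from the plastid original, so a read from a plastid transcript and a read from the nuclear copy can carry the same letters. The deposited table lists loci of nuclear chromosomes and of unplaced nuclear sequence and 0 loci on a plastid chromosome, and at which copy a read arose cannot be told apart from it.

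Each locus was set beside the 159 plastid genes of the RefSeq gene table (assembly ASM3414082v1). A plastid counterpart was accepted where the span was equal within 1 base and at least 1 other locus lay at the same offset within 120 bases, or where a locus lay between such loci. By this measure 81 of the 115 loci had a place in the plastid order, 31 on chromosome 4 and 50 on chromosome 10. A further 14 loci lay among them without a place of their own, 13 of these on chromosome 4. The remaining 20 loci, 11 on chromosome 4 and 9 on chromosome 10, lay outside the first and last matched locus, so they are not shown to lie in the insertions, and "insertion locus" below means a locus of the identifier ranges. Plastid gene names below are those of the counterpart and not annotations of the nuclear loci. Of the 115 loci, 31 matched genes of the plastid's own gene expression (ribosomal proteins, ribosomal RNA, translation initiation and RNA polymerase), 34 matched photosynthesis and chlororespiration genes, and 50 matched neither.

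The WT libraries differed from the mutant libraries in a property of the values themselves. RPKM values of 1 locus are multiples of what 1 read is worth, and for 67 of the 81 loci above 0 the reads could be recovered. In the mutants 0 of 174 values of these loci lay on steps of 0.5 or 0.25 of a read, against 64 of 156 values (41.0%) in WT. By library they were 11 of 48, 25 of 52 and 28 of 56 values in WT repeats 1, 2 and 3. Among the other loci of the table with up to 20 reads, 1.18 to 1.57% of values lay on part reads in the mutant libraries, against 23.0 to 25.3% in the WT libraries. The cause was not tested. All 3 libraries with frequent part reads were WT, so a difference in how the reads were assigned and a difference of genotype cannot be told apart, no comparison with WT can be made without them, and no such split exists between P1MH and P3MH.

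**Figure D1:**
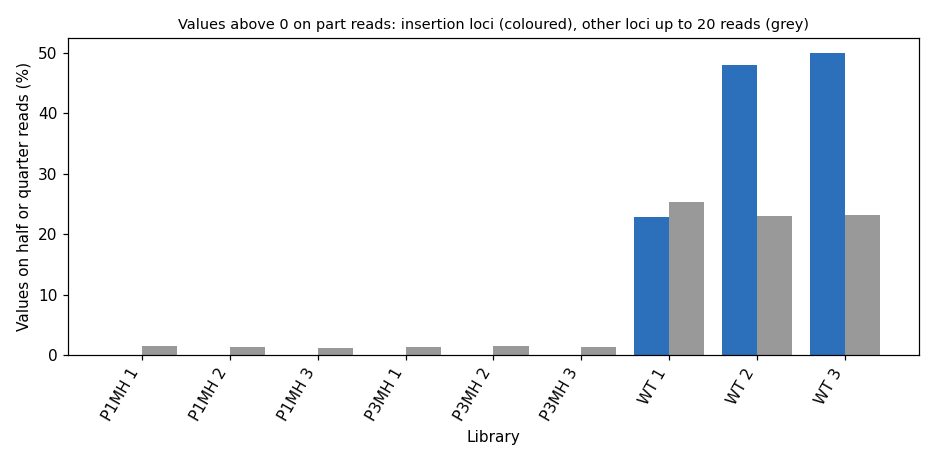
Percent of values above 0 that lay on part reads (y axis) in each library (x axis), for the insertion loci with recovered reads (coloured bars) and for other loci with up to 20 reads (grey bars). The insertion loci are at 0 in all 6 mutant libraries and at 22.9% or more in the WT libraries, where the grey bars reach 23.0 to 25.3%.

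The insertion loci were not silent in the table, and their reads were few. Of the 115, 81 were above 0 in at least 1 library (70.4%, against 53.7% of the whole table), 26 were above 0 in all 9 libraries and 34 were at 0 in every library. A mean of at least 1 RPKM (read number over exon length and library depth) was reached by 36 loci, 23 on chromosome 4 and 13 on chromosome 10, which is 31.3% of the members against 28.7% of the table. Of the 80 neighbouring loci, 20 on each side of each insertion, 23 were above 0 and 8 reached that mean. The recovered totals were 5865007 to 7379192 reads in the mutant libraries and 6814570 to 7498434 in WT, at which 3 reads on 1 kilobase amount to 0.40 to 0.51 RPKM. The floor covers counting error only, since the reads carry no molecular identifiers.

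Fewer members were above 0 in the mutants. The P1MH libraries held 33, 34 and 38 members above 0, the P3MH libraries 39, 37 and 35, and the WT libraries 56, 61 and 65, so the mutant and WT counts did not overlap. Over the whole table the shares of loci above 0 were 39.6 to 41.3% in P1MH, 40.1 to 41.0% in P3MH and 42.5 to 43.2% in WT. The summed level of the members was 221 ± 76.9 RPKM in P1MH, 231 ± 66.3 RPKM in P3MH and 759 ± 45.4 RPKM in WT (SD, n = 3 each). On chromosome 4 the sums averaged 111, 118 and 460 RPKM in P1MH, P3MH and WT, and on chromosome 10 they averaged 111, 114 and 299 RPKM.

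A group of 19 members was at 0 in all 6 mutant libraries and above 0 in all 3 WT libraries, 11 on chromosome 4 and 8 on chromosome 10. That is 16.5% of the members, against a background of 0.373% of all loci in the table (209 loci). Only 9 of the 19 reached a mean of at least 1 RPKM, and some of the others rest on very few reads. The rps14 counterpart on chromosome 10, LOC_Os10g21244, had 2, 0.5 and 1 reads in WT. As the 19 loci were picked for being at 0 in the mutants, no part read could occur at them there. The reverse, above 0 in all mutant libraries and at 0 in all WT libraries, was found for 0 members. Of the 80 neighbouring loci 0 had the first pattern, and 23 were above 0 in any library. At the background share of 0.373% a count of 0 is usual for 80 loci, so it marks no edge of the pattern. By counterpart the 19 were 8 of the 31 gene expression loci, 7 of the 34 photosynthesis loci and 4 of the 50 others.

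Among the 36 members with a mean of at least 1 RPKM, limma on log2(RPKM + 1), with p-values adjusted by Benjamini-Hochberg over all 16064 loci tested, called 16 lower and 0 higher in P1MH than in WT. The background in the same comparison was 5.63% of loci called lower and 3.18% called higher. In P3MH against WT the same 16 loci were lower and 0 were higher, where the background was 3.1% lower and 1.67% higher. The balance of the background turned with the scaling: with median-ratio rescaling 659 loci were higher and 566 lower in P1MH and 408 were higher and 326 lower in P3MH, while the members called were 0 higher, and 16 lower in P1MH and 15 in P3MH. Both comparisons use the same WT libraries, so the calls in the mutants are not independent of each other. The 16 loci are 44.4% of the members tested, 11 of 23 on chromosome 4 and 5 of 13 on chromosome 10, and in each of them all 3 WT libraries lay above all 6 mutant libraries, a pattern that 10.9% of all tested loci showed.

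The filter itself bears on this count. A locus that reached the mean only through WT had to differ, and 24 of the 36 members had a mean of at least 1 RPKM over the 6 mutant libraries alone. Of these 24, 5 were called, among them the counterparts of infA and of rps3 on chromosome 10, and LOC_Os10g21352. The share of all loci called under that same condition was not counted, so 5 of 24 has no background beside it. The median log2 difference over the 36 members was −0.40 in P1MH and −0.57 in P3MH, beside −0.10 and −0.13 over all loci tested. Among the 20 members not called the differences from WT were of both signs, with 11 above and 8 below 0 in P1MH and 11 above and 9 below 0 in P3MH, and the smallest adjusted p in limma was 0.172 in P1MH and 0.160 in P3MH.

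**Figure D2:**
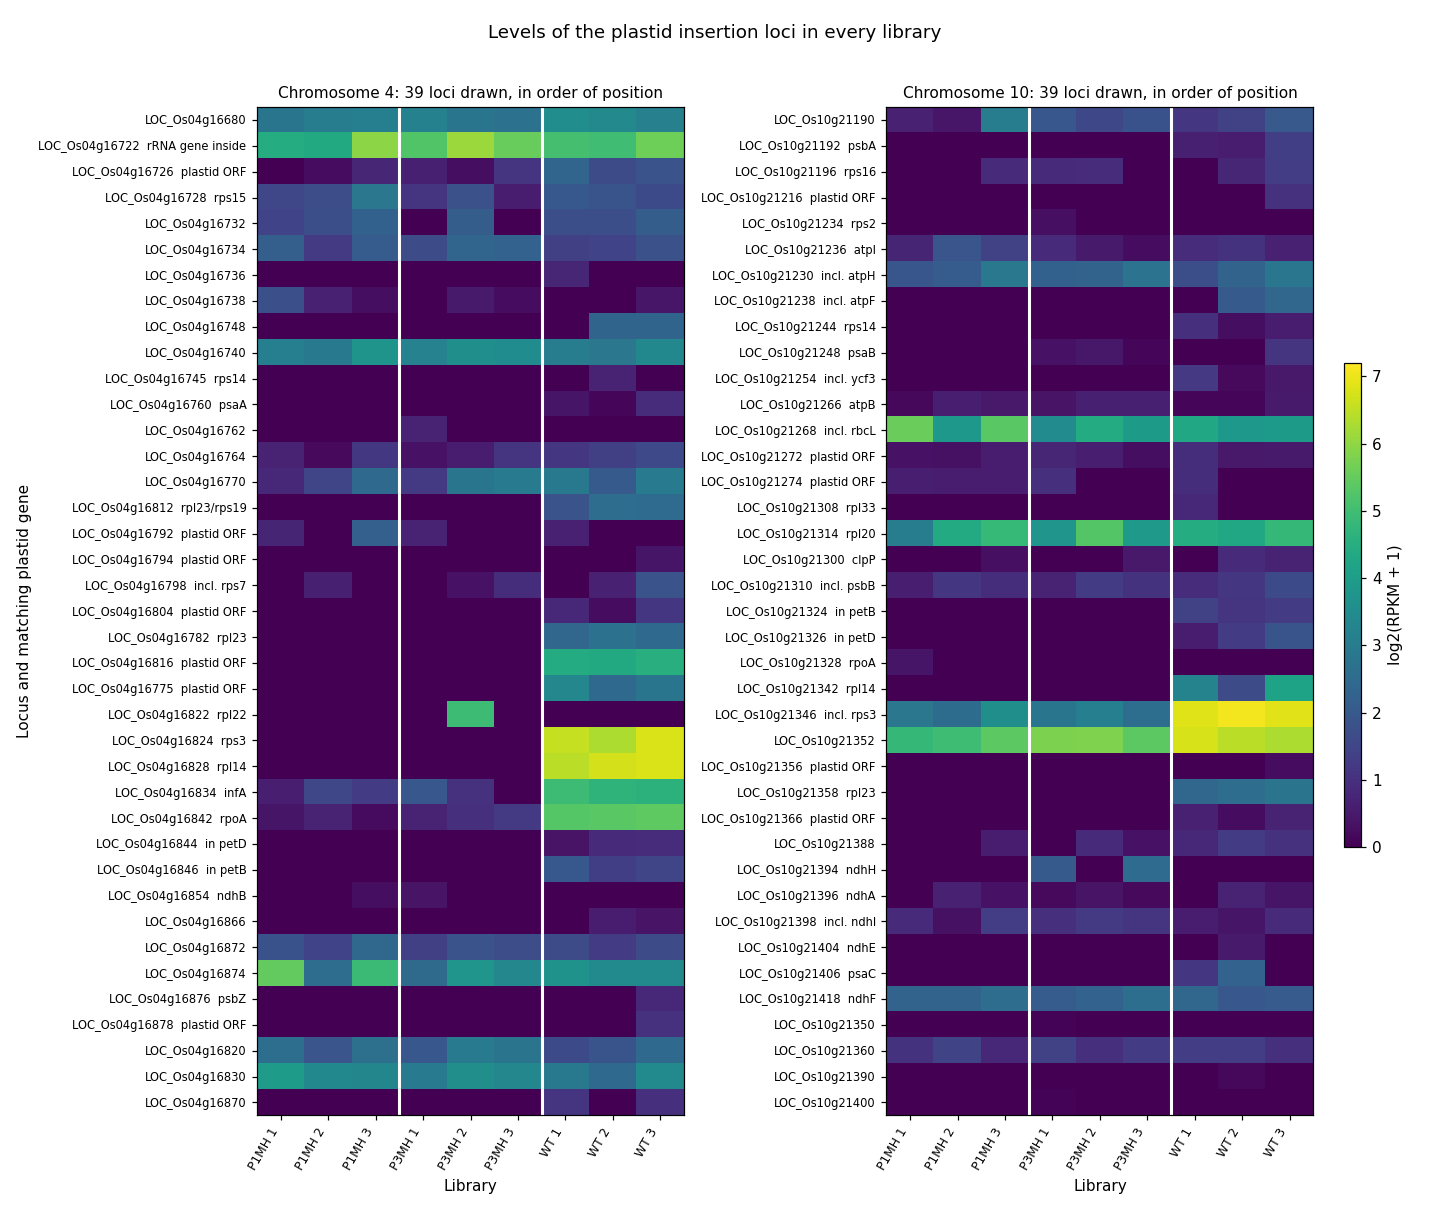
Level of insertion loci above 0 in any library, as log2(RPKM + 1) by colour, with loci down the page in order of position (39 on each chromosome, with 3 of the 81 such loci not drawn; the matching plastid gene follows the identifier) and libraries across. The bright rows of rps3, rpl14, infA and rpoA on chromosome 4 and of rps3 on chromosome 10 are confined to the 3 WT columns, or nearly so, while the rows with the rRNA gene, rbcL and rpl20 are bright in all 3 genotypes.

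Of the 31 loci that match genes of plastid gene expression, 16 were tested and 12 of these were called lower in both mutants. The highest of them in WT match ribosomal proteins of the small and large subunits. The locus that covers rps3, LOC_Os10g21346 (chromosome 10, 10886437 to 10887209, minus strand), had 6.18, 4.81 and 11.1 RPKM in P1MH and 5.99, 7.68 and 5.08 RPKM in P3MH, against 113, 133 and 116 RPKM in WT. The mutant libraries were all low and far from the WT range. The log2 difference was −3.93 ± 0.23 (SE) in P1MH (limma adjusted p = 2.86e-07) and −4.08 ± 0.23 in P3MH (limma adjusted p = 2.14e-07). These values rest on 24 to 56 reads in the mutant libraries and on 597 to 770 reads in WT.

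The rps3 counterpart on chromosome 4, LOC_Os04g16824 (9154785 to 9155504, plus strand), was listed at 0 in all 6 mutant libraries and at 94.4, 78.3 and 110 RPKM in WT. The rpl14 counterpart on the same chromosome, LOC_Os04g16828 (9157268 to 9157639, plus strand), was also listed at 0 in every mutant library, against 86.4, 106 and 110 RPKM in WT. Mutant and WT libraries did not overlap at either locus. At both loci the mutant level stood on 0 reads and the WT level on 219 to 562.5 reads in each library. Their fitted log2 differences, −6.56 and −6.66 in each mutant, depend on the pseudocount of 1 and are not bounds. Both loci reached the mean of 1 RPKM only through WT, so their calls were set by that filter and no p is given for them.

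Loci beside them kept a few reads in the mutants. LOC_Os04g16834 (chromosome 4, 9158320 to 9158643, plus strand) matches infA, which encodes a translation initiation factor, and had 0.526, 1.91 and 1.42 RPKM in P1MH and 2.86, 1.02 and 0 RPKM in P3MH, against 29.7, 24.9 and 23.7 RPKM in WT. The mutant values amount to 0 to 6 reads per library and the WT values to 54.5 to 65.5 reads. The log2 difference was −3.61 ± 0.41 in P1MH (limma adjusted p = 0.000386) and −3.77 ± 0.41 in P3MH (limma adjusted p = 0.000303). With a pseudocount of 0.1 the P1MH call was lost (limma adjusted p = 0.0532).

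LOC_Os04g16842 (chromosome 4, 9159535 to 9160548, plus strand) matches rpoA, the alpha subunit of the plastid-encoded RNA polymerase. It had 0.336, 0.611 and 0.151 RPKM in P1MH and 0.609, 0.976 and 1.34 RPKM in P3MH, against 38.4, 39.7 and 42.0 RPKM in WT. The WT libraries lay close together and far above the mutants. The log2 difference was −4.92 ± 0.19 in P1MH and −4.39 ± 0.19 in P3MH. The mutant libraries alone averaged under 1 RPKM, so this locus also entered the test through WT. No p against WT is given for it. The values stand on 1 to 4 reads in P1MH and 4 to 10 reads in P3MH, against 265, 302 and 302 reads in WT.

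Other called ribosomal protein loci were low in WT and listed at 0 in all mutant libraries. The rpl14 counterpart on chromosome 10, LOC_Os10g21342 (10884349 to 10884720, minus strand), had 8.28, 2.15 and 17.1 RPKM in WT, from 21, 6 and 45 reads. The rpl23 counterparts, LOC_Os04g16782 (chromosome 4, 9151883 to 9152164, plus strand) and LOC_Os10g21358 (chromosome 10, 10889778 to 10890059, minus strand), had 4.16, 5.44 and 4.51 RPKM and 4.16, 4.97 and 5.76 RPKM in WT. LOC_Os04g16812 (chromosome 4, 9139411 to 9139692, minus strand), whose span fits rpl23 and rps19 alike, had 2.60, 4.97 and 4.76 RPKM in WT. These 4 loci, too, entered the test only through WT.

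The 4 tested gene expression loci that were not called had no common pattern. LOC_Os04g16722 (chromosome 4, 9094075 to 9098277, plus strand), which covers a plastid ribosomal RNA gene, had 20.9, 19.7 and 60.4 RPKM in P1MH and 37.0, 68.2 and 44.8 RPKM in P3MH, against 32.8, 30.8 and 48.3 RPKM in WT. The genotypes overlapped, and the log2 differences of −0.31 ± 0.40 in P1MH and 0.40 ± 0.40 in P3MH were within their error. LOC_Os10g21314 (chromosome 10, 10873463 to 10873822, minus strand), which matches rpl20 of the large subunit, had 7.1, 20.2 and 27.3 RPKM in P1MH and 12.4, 37.6 and 13.9 RPKM in P3MH, against 20.8, 18.7 and 26.7 RPKM in WT. It too overlapped in all 3 genotypes, with limma adjusted p = 0.666 in P1MH and 0.860 in P3MH. The rps15 counterpart, LOC_Os04g16728, averaged a few RPKM in each genotype, between 0.496 and 6.18 RPKM over the 9 libraries. The rpl22 counterpart, LOC_Os04g16822, was above 0 in a single library, P3MH repeat 2, at 29.7 RPKM from 81 reads. The 8 gene expression loci at 0 in every library match rps7 (3 loci), rpl16 (1 on each chromosome), rps18, rps19, and rpl23 or rps19.

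**Figure D3:**
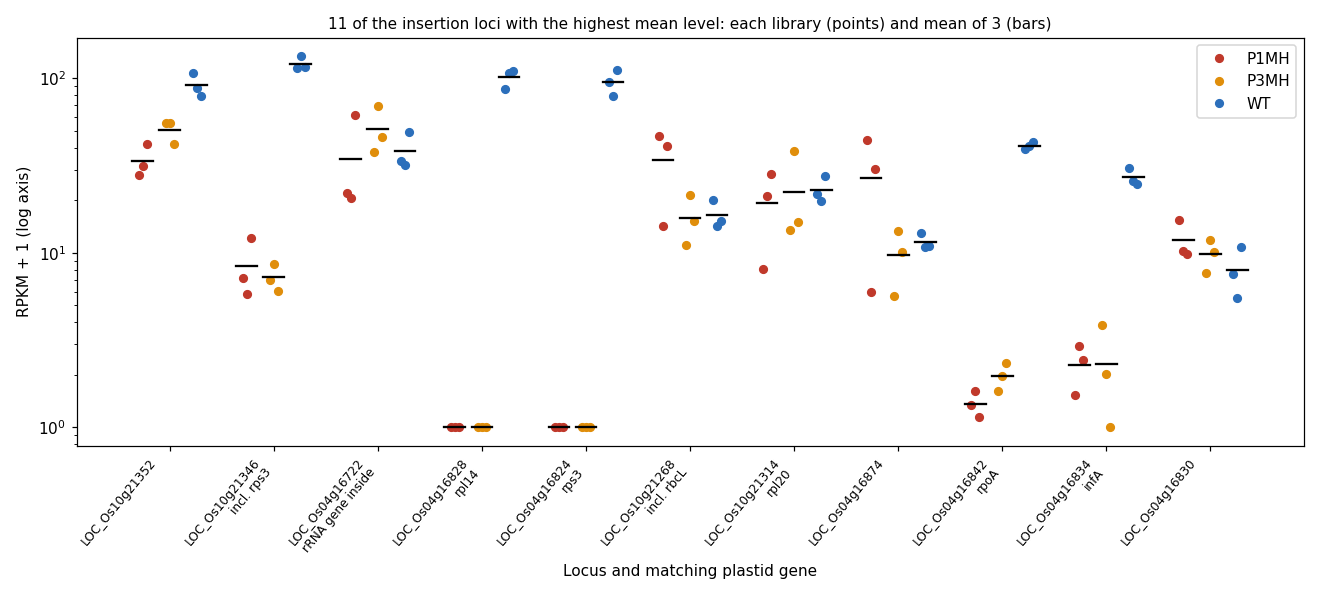
Level of 11 of the insertion loci with the highest means, as RPKM + 1 on a log axis, with P1MH, P3MH and WT side by side for each locus (points are libraries, bars are means of 3). The loci matching rpl14 and rps3 on chromosome 4 sit at 0 RPKM in all mutant libraries, and those with the rRNA gene, rbcL and rpl20 and LOC_Os04g16830 overlap between genotypes.

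None of the photosynthesis counterparts was called, and all but the rbcL locus were at 6.42 RPKM or less in every library. Of 34 such loci 22 were above 0 in at least 1 library and 5 were tested. The highest, LOC_Os10g21268 (chromosome 10, 10861158 to 10862712, plus strand), covers rbcL, the gene of the large subunit of the carbon-fixing enzyme Rubisco. It had 46.1, 13.2 and 39.9 RPKM in P1MH and 10.0, 20.5 and 14.2 RPKM in P3MH, against 19.0, 13.3 and 14.2 RPKM in WT. P1MH repeats 1 and 3 stood above all other libraries, while P1MH repeat 2 and all of P3MH overlapped WT. The log2 difference of 0.89 ± 0.42 in P1MH was not called (limma adjusted p = 0.230) and that in P3MH was −0.09 ± 0.42 (limma adjusted p = 0.932). Without P1MH repeat 2 the P1MH difference was 1.43 and called (limma adjusted p = 0.00614).

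The other tested photosynthesis loci cover or match atpH and atpI of the ATP synthase, psbB of photosystem II and ndhF of the plastid NAD(P)H dehydrogenase complex. LOC_Os10g21418 (chromosome 10, 10918585 to 10920789, plus strand), the ndhF counterpart, had 3.94, 3.86 and 5.01 RPKM in P1MH and 3.29, 3.82 and 5.10 RPKM in P3MH, against 4.19, 2.84 and 3.17 RPKM in WT. The atpH locus, LOC_Os10g21230, had 2.80, 3.24 and 6.42 RPKM in P1MH and 3.69, 3.95 and 5.67 RPKM in P3MH, against 2.30, 3.89 and 6.12 RPKM in WT. Both overlapped in all 3 genotypes, and so did the counterparts of psbB and atpI.

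The 7 photosynthesis loci above 0 in WT only were low. They match psbA and psaA, core proteins of the photosystems, the photosystem I assembly gene ycf3, and petB and petD of the cytochrome b6f complex on each chromosome. The petB locus on chromosome 4, LOC_Os04g16846, had the highest level among them, 2.94, 1.53 and 1.82 RPKM in WT from 14, 8 and 9 reads. The psaA counterpart, LOC_Os04g16760, had 0.326, 0.0888 and 0.877 RPKM in WT, while its equal-span partner on chromosome 10, LOC_Os10g21250, was at 0 in all 9 libraries. These loci did not enter the test, as their means were under 1 RPKM.

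Of the 50 loci that match neither group, 15 were tested and 4 were called lower in both mutants. LOC_Os10g21352 (chromosome 10, 10887700 to 10888137, minus strand), with the highest mean of all 115, was given no counterpart, as the RefSeq table lists no gene at the matched plastid place. By the order of the chromosome 4 loci the rps19 counterpart, LOC_Os04g16818, would fall inside it. LOC_Os10g21352 had 26.9, 30.4 and 41.0 RPKM in P1MH and 54.3, 54.6 and 40.8 RPKM in P3MH, against 107, 87.2 and 78.0 RPKM in WT. All mutant libraries lay below all WT libraries, and P1MH and P3MH overlapped only between their nearest libraries. The log2 difference was −1.45 ± 0.19 in P1MH (limma adjusted p = 0.000367) and −0.85 ± 0.19 in P3MH (limma adjusted p = 0.020). The P3MH call was lost with median-ratio rescaling, upper-quartile rescaling or no filter (limma adjusted p = 0.0616, 0.0595 and 0.0505) and without any 1 of WT repeat 1, WT repeat 2 or P3MH repeat 3 (limma adjusted p = 0.0902, 0.0723 and 0.0678).

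The others among these 4 match unnamed plastid reading frames on chromosome 4. LOC_Os04g16816 (9153148 to 9153561, minus strand) was listed at 0 in all mutant libraries, against 20.6, 19.7 and 22.3 RPKM in WT. LOC_Os04g16775 (9153684 to 9153932, plus strand) was likewise at 0 in the mutants, against 9.13, 4.55 and 5.95 RPKM in WT. LOC_Os04g16726 (9102551 to 9103402, plus strand) had 0, 0.182 and 0.720 RPKM in P1MH and 0.543, 0.194 and 1.11 RPKM in P3MH, against 4.13, 2.11 and 2.57 RPKM in WT. All 3 entered the test only through WT, so no p is given for them. The log2 difference of LOC_Os04g16726 was −1.60 ± 0.28 in P1MH and −1.29 ± 0.28 in P3MH. Its P3MH call was lost with a pseudocount of 0.1 and without WT repeat 3, P3MH repeat 1 or P3MH repeat 2.

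Among the loci without a plastid place, LOC_Os04g16874 (chromosome 4, 9177364 to 9178959, plus strand) was the highest. It had 43.3, 4.95 and 29.1 RPKM in P1MH and 4.64, 12.4 and 9.17 RPKM in P3MH, against 12.0, 9.82 and 10.0 RPKM in WT. P1MH repeats 1 and 3 were again the high libraries and P1MH repeat 2 was low, as at the rbcL locus. The difference was not called in P1MH (log2 difference 0.79 ± 0.68, limma adjusted p = 0.533), and without P1MH repeat 2 it was 1.66 (limma adjusted p = 0.00929). The start of LOC_Os04g16874 overlaps the end of LOC_Os04g16872 on the same strand, so reads there cannot be told apart. Of the 20 loci outside the matched stretch 5 were tested and 0 were called. The highest of these, LOC_Os04g16830 (chromosome 4, 9190922 to 9195969, plus strand), had 14.5, 9.22 and 8.87 RPKM in P1MH and 6.70, 10.8 and 9.12 RPKM in P3MH, against 6.53, 4.53 and 9.82 RPKM in WT.

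Most of the called loci lay in 1 stretch of the plastid order, which was delimited after their values had been seen. In the plastid genome the genes from rpl23 to rpoA form a cluster that is transcribed together, and petD and petB lie next to it. The matching stretch held 15 loci on chromosome 4, LOC_Os04g16804 to LOC_Os04g16846 by position, and 11 on chromosome 10, LOC_Os10g21324 to LOC_Os10g21366. Of these 26 loci 14 were called, 14 were above 0 in WT only, 20 had all WT libraries above all mutant libraries, and 3 were at 0 in every library. Of the other 89 insertion loci 21 were tested, 2 were called and 5 were above 0 in WT only. As the stretch was drawn around the called loci, no test was made of it.

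The summed level of the stretch was 37.0, 38.8 and 56.5 RPKM in P1MH and 64.4, 96.7 and 50.7 RPKM in P3MH, against 590, 576 and 612 RPKM in WT. The other 89 loci summed to 176, 110 and 246 RPKM in P1MH and 119, 210 and 153 RPKM in P3MH, against 156, 146 and 198 RPKM in WT. The stretch separated WT from both mutants without overlap, and the sum of the remaining loci overlapped in all 3 genotypes. As the stretch was drawn around the called loci, this contrast follows from the choice and is no separate result. On chromosome 4 the stretch averaged 2.52 RPKM in P1MH and 13.4 RPKM in P3MH, against 355 RPKM in WT. The P3MH mean there comes mostly from the rpl22 counterpart in repeat 2, and the sums of P3MH repeats 1 and 3 were 3.47 and 3.22 RPKM.

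**Figure D4:**
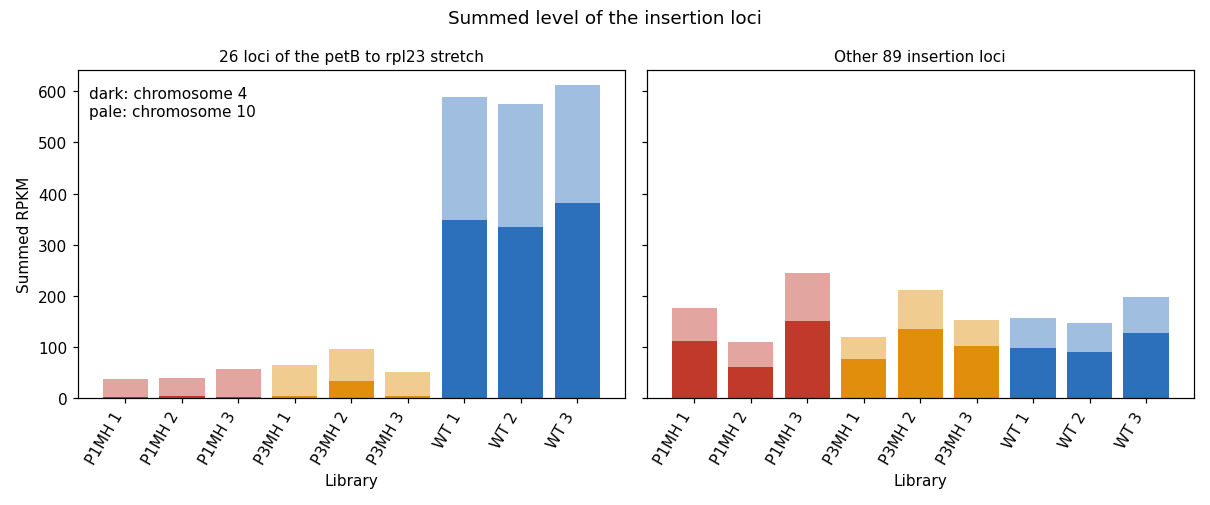
Summed RPKM (y axis) in each library (x axis) for the 26 loci of the stretch from petB to just past rpl23 (left) and the other 89 insertion loci (right), with chromosome 4 in dark and chromosome 10 in pale colour. In the stretch, which was drawn around the called loci, the mutants reach at most 96.7 RPKM and the WT libraries 576 to 612 RPKM. The sums on the right overlap between genotypes.

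Part reads occurred both among these loci and among the other members. In WT, 20 of 54 values of the loci above 0 in WT only lay on part reads (18 of the 19 loci had recovered reads), against 44 of 102 values of the other loci. Of the 16 called loci 12 had a part read in at least 1 WT library. The other 4 had whole-number read totals in all 3 WT libraries, among them the counterparts of rpoA on chromosome 4 and of rpl14 and rps3 on chromosome 10. Part reads can add up to a whole number, so these totals do not show that the 4 loci held none. Whether the part reads and the differences from WT are related was not tested.

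The insertions hold copies of the same plastid genes, and 24 pairs of loci had exactly equal spans, formed by 22 loci of chromosome 4 and 20 of chromosome 10. In 16 of the pairs both loci matched the same plastid gene. Both loci were at 0 in 4 pairs, 1 locus was at 0 in 7, and both were above 0 in 13. Over the 9 libraries there were 71 pair values with at least 1 locus above 0, 33 with both above 0 and 5 equal within 1%. In the 16 pairs that matched the same plastid gene, 44 values had at least 1 locus above 0 and 27 had both. Of these, 4 were equal within 1% and 5 within 10%. A limit of 1% is narrower than counting error at loci with few reads. Unequal values there do not show that the copies differ in level. In 6 pairs both loci were above 0 in WT only.

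Of these pairs the rpl14 pair had the widest gap in RPKM. In WT the chromosome 4 locus stood at 86.4, 106 and 110 RPKM and the chromosome 10 locus at 8.28, 2.15 and 17.1 RPKM, with both at 0 in all mutant libraries. The rpoA pair differed in the same direction: LOC_Os10g21328 on chromosome 10 was at 0 in all WT libraries and had 2 reads in P1MH repeat 1, whereas its partner held 265 to 302 reads in WT. The pair of LOC_Os04g16816 and LOC_Os10g21356 had 20.6, 19.7 and 22.3 RPKM on chromosome 4 in WT, against 0, 0 and 0.170 RPKM on chromosome 10. The rpl23 pair, given above, lay close together. Where copies are near-identical the level of a single locus depends on how the reads were divided between them, and the counting tool is not given in the sources used here.

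**Figure D5:**
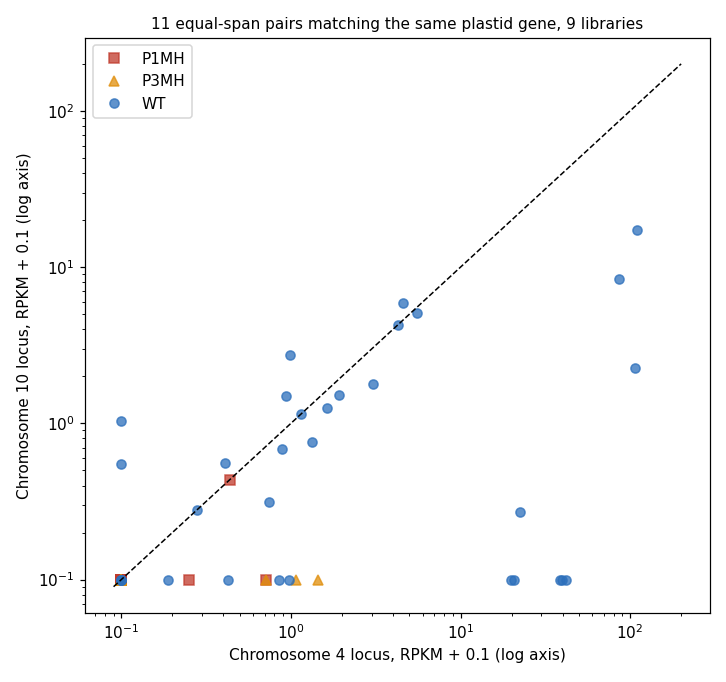
Level of the chromosome 10 locus (y axis) against its chromosome 4 partner (x axis), both as RPKM + 0.1 on log axes, for 11 of the 12 equal-span pairs that match the same plastid gene and are above 0 in any library; each point is 1 pair in 1 library, coloured by genotype, and the dashed line marks equal levels. The WT points of rpl23 lie near the line, and those of rpl14, rpoA and LOC_Os04g16816 lie far below it.

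Between the mutants no insertion locus was called. In P1MH against P3MH limma gave 0 members lower and 0 higher out of 36, where the background was 0.0187% lower and 0.0125% higher, and 6 of 36 members (16.7%) had an unadjusted p under 0.05, beside 12.8% of all loci tested. The smallest adjusted p was 0.243 in limma, for LOC_Os10g21352, which averaged 32.7 ± 7.33 RPKM in P1MH and 49.9 ± 7.85 RPKM in P3MH (SD, n = 3 each). The rpoA counterpart on chromosome 4 averaged 0.366 ± 0.231 RPKM in P1MH and 0.974 ± 0.364 RPKM in P3MH (SD, n = 3 each; limma adjusted p = 0.285). Of the 36 members 9 were at 0 in all 6 mutant libraries, so they could not be called between the mutants or count toward the 16.7%. The median log2 difference over the 36 members was 0, and these 9 weigh on it. In a fit of the mutant libraries alone 26 members passed the filter, 0 were called, and their median was −0.11.

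Nuclear genes outside the insertions that encode parts of the photosynthetic machinery were read from the same fit. Of 13 loci listed, 12 were in the table and 4 could be given a checked name. Only these 4 are described, and calls over the whole list are not given. Over all loci tested 5.63% were called lower in P1MH and 3.1% in P3MH, with median log2 differences of −0.10 and −0.13. RBCS-C (LOC_Os12g17600), a small subunit of Rubisco, averaged 6.76 ± 1.39 RPKM in P1MH and 7.89 ± 1.08 RPKM in P3MH, against 12.8 ± 0.473 RPKM in WT (SD, n = 3 each). It was lower in P1MH by a log2 difference of −0.85 (limma adjusted p = 0.00671) and in P3MH by −0.64 (limma adjusted p = 0.0405). PETE (LOC_Os06g01210), the plastocyanin that carries electrons to photosystem I, was lower in P1MH (−0.66, limma adjusted p = 0.0259) and not called in P3MH (−0.45, limma adjusted p = 0.145). The light-harvesting genes CAB2R and CAB1R were not called in either mutant, with log2 differences between −0.22 and −0.00. A test of the difference between nuclear and insertion loci was not made.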

How the data were processed

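Total RNA of dehulled seeds was made into ScriptSeq v2 libraries, per the labels' protocols. The authors deposited 1 table of RPKM values, per the file headers; for the aligner, counting tool, strand setting and build, a name is not given in the sources used here, and coordinates are those of the table. Its 9 value columns name the libraries. Reads were taken from RPKM spacing in steps of 0.25 read (tolerance 0.001) for loci whose exon length equals their span. limma 3.58.1 (R 4.3.3), with trend and robust moderation, was run on log2(RPKM + 1) for 16064 loci with a mean of at least 1 RPKM, all 9 libraries in 1 fit, at a Benjamini-Hochberg false discovery rate of 0.05, and was tested on simulated data. P-values measure the spread between these libraries only. Plastid counterparts and 4 nuclear names came from RefSeq, as the table holds no names; nuclear names needed a span ratio of 0.8 to 1.25. Values in every library were to be printed for the 12 loci of highest mean, up to 12 called loci and pairs with both means at least 1 RPKM; the 4 further called loci and all others were named after their values were seen. Some loci enter the counts and sums and are not reported here one by one. The members and lists were chosen with earlier results of these data known. The alternatives were other scalings, filters, pseudocount, variance model, a replicate block, leaving out each library and fitting only the genotypes compared. Tables and figures used matplotlib 3.10.9, pandas 2.3.3, numpy 2.4.6 and Python 3.11.15.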

Additional observations from a re-analysis of the deposited data

How the results depend on the processing

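At a filter of 5 RPKM, where fewer loci entered, 8 of 15 tested members were called lower than WT in P1MH and likewise in P3MH (53.3%, beside 7.77 and 3.11% of all loci). This mean, too, is over all 9 libraries, so called loci that reached it only through WT had to differ. LOC_Os04g16816, LOC_Os04g16824 and LOC_Os04g16828 were such loci, at 0 in all mutant libraries. So were LOC_Os04g16834 and LOC_Os04g16842, which averaged 1.29 and 0.67 RPKM over the mutant libraries. The 53.3% is therefore no separate support. Leaving out single libraries gave 15 to 18 calls in P1MH against WT, 14 to 16 in P3MH against WT and 0 to 2 between the mutants. The 2 calls between the mutants, LOC_Os04g16722 and LOC_Os10g21190, both lower in P1MH, came without P1MH repeat 3. In that fit 139 of 16063 loci of the table were called higher in P1MH and 103 lower, beside 2 and 3 with all libraries. The calls thus rose over the whole table and not only at these loci. Without P1MH repeat 2 there were 2 calls higher than WT, LOC_Os04g16874 and LOC_Os10g21268, of 36 members tested. Over all loci 450 of 16051 were called higher in that fit. With the replicate number as a block the counts were 16, 16 and 0; the numbers do not pair the samples, as deviations of same-numbered libraries correlated at −0.31 to 0.11 over 9 pairs, against −0.21 to 0.30 over 18 pairs of different number. Median-ratio rescaling moved the median of all loci by over 0.1 on the log2 scale in P3MH and left 16 and 15 members lower. With no filter 22 and 21 of 81 members were lower in P1MH and P3MH (27.2 and 25.9%, beside 2.60 and 1.74% of all loci). The 19 members above 0 in WT only entered that fit through WT as well. Without the highest locus of each insertion the summed level was 155 RPKM in P1MH, 132 RPKM in P3MH and 631 RPKM in WT.

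No called difference of a named locus changed sign under the alternatives run. The call was lost in 11 instances, at LOC_Os04g16726, LOC_Os04g16834 or LOC_Os10g21352, and kept in 491. The 491 include the loci at 0 in the mutants, which entered the test only through WT, so this count does not measure how firm the calls are. Differences that were not called changed sign as follows, and the cause was not tested. At the rbcL locus in P3MH against WT the log2 difference was 0.056 with median-ratio, 0.013 with quantile and 0.064 with upper-quartile scaling, and −0.33 to 0.15 with single libraries left out. With single libraries left out the rpl20 locus spanned −0.80 to 0.10 in P1MH against WT, −0.69 to 0.073 in P3MH against WT and −0.59 to 0.31 between the mutants, and LOC_Os04g16874 spanned −0.61 to 0.016 in P3MH against WT. In P1MH against P3MH the infA locus spanned −0.34 to 0.64 and the rps3 locus of chromosome 10 −0.15 to 0.38. At this depth a locus at 0 in a library allows up to 3 reads.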

Other observations

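A few loci outside the called group appeared in some libraries of a genotype and not in others, and were picked after their values had been seen. The ndhH counterpart LOC_Os10g21394 had 24 and 41 reads in P3MH repeats 1 and 3 and 0 in the other 7 libraries. LOC_Os04g16732, of similar span on chromosome 4, had 12, 18 and 29 reads in P1MH, 0, 24 and 0 reads in P3MH and 19, 20.5 and 28.5 reads in WT, and was thus at 0 in the libraries where the ndhH counterpart was present. The equal-span pair LOC_Os04g16748 and LOC_Os10g21238, which covers atpF of the ATP synthase on chromosome 10, was at 0 in all mutant libraries and in WT repeat 1. In WT repeat 2 the pair held 41.25 and 32.5 reads, and in WT repeat 3 it held 38.75 and 41.25 reads. The rpl22 counterpart LOC_Os04g16822 had 81 reads in P3MH repeat 2 and 0 in every other library. No test was made of these values.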
